A study of Mus musculus with 14 samples.

Results

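The p53 gene and 9 of its known target genes are described here in epidermal stem cells (EpdSCs), which renew the epidermis between hair follicles, while SOX9 was switched on in them. The members were chosen by symbol: *Trp53*, which encodes p53, and *Mdm2*, *Ccng1*, *Bax*, *Bbc3*, *Pmaip1*, *Trp53inp1*, *Sesn2*, *Aen* and *Phlda3*. These are 10 of the 54332 genes in the table, and all 10 averaged 1 TPM or more and so were tested. TPM is the abundance of a gene's transcripts for their length relative to a fixed total in each library. All animals of the time course were CD1 mice carrying K14rtTA and TRE-myc-Sox9, labelled male, in which the keratin 14 promoter drives the doxycycline-dependent activator in skin epithelium and doxycycline (DOX) then induces MYC-tagged SOX9. Each timepoint had 2 libraries, at postnatal day 21 before DOX (D0), at day 28 after 1 week (W1), at day 35 after 2 weeks (W2), at day 63 after 6 weeks (W6), and after 12 weeks (W12). The W12 cells came from newborn skin of the same genotype that was grafted onto female *Nude* mice, which are immunocompromised, and was induced once the grafts had healed, so 12 weeks of SOX9 and grafting cannot be told apart, and neither can time on DOX and age. Cells were sorted from back skin as negative for CD31, CD45, CD117, CD140a and CD34 and high for CD49f and Ly6A. No SOX9-negative animal of matched age was analysed here.

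p53 is a transcription factor that is kept scarce in unstressed cells because MDM2 marks it for degradation, and it accumulates after DNA damage and other stress. It then switches on genes that halt the cell cycle, repair DNA, limit growth or kill the cell, and also *Mdm2* itself, which closes a feedback loop. In epidermis it is best known for the response to ultraviolet light. Because p53 is set mainly through the stability of its protein, the RNA level of *Trp53* and the activity of p53 are separate quantities, and only RNA was measured.

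p53 binds DNA at a 20-base element made of 2 half-sites of 10 bases, each with 3 purines, a C, 2 bases that are A or T, a G and 3 pyrimidines. Promoter sequences of RefSeq on GRCm38.p6 ran from 250 bases before to 50 bases after the start of transcription. Those of 8 of the 10 members were searched for this element on both strands with up to 3 mismatches. *Pmaip1* and *Trp53inp1* were not part of the search, so whether their promoters hold a match was not tested. Where a gene had several starts, the one with the closest match was kept. The closest match in *Ccng1* had 1 mismatch, *Trp53*, *Bax*, *Bbc3* and *Aen* had a match with 3, and the best match in *Mdm2*, *Sesn2* and *Phlda3* had 5. A match with at most 3 mismatches was held by 6.29% of all 32851 promoter windows, and one with at most 1 mismatch by 0.0883%. Of the 11 windows of these 8 members, 6 held a match with at most 3 mismatches. Sequence outside the windows was not searched, so a poor match does not mean that a gene lacks an element. The matches are shown 5′ to 3′ on the strand of the gene, with 20 flanking bases on each side and the element in capitals, to let the members be compared with *Cdkn1a*, the classic p53 target that encodes the cell-cycle inhibitor p21.
Ccng1, chr11:40755442-40755501, minus strand, 1 mismatch: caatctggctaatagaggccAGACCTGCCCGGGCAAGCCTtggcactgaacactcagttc
Cdkn1a, chr17:29090908-29090967, plus strand, 1 mismatch: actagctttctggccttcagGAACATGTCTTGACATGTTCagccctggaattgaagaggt
Bax, chr7:45467070-45467129, minus strand, 3 mismatches: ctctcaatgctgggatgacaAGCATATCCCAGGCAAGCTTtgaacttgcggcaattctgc
Bbc3, chr7:16309466-16309525, plus strand, 3 mismatches: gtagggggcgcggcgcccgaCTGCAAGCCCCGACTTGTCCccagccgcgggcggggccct
Aen, chr7:78895917-78895976, plus strand, 3 mismatches: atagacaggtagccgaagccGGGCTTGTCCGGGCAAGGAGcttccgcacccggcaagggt
Trp53, chr11:69580264-69580323, plus strand, 3 mismatches: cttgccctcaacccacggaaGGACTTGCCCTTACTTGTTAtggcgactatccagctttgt
Counted from the start that was kept, the element of *Ccng1* lies from base -195 to -176 and that of *Cdkn1a* from -51 to -32. That of *Bax* lies from -211 to -192, that of *Bbc3* from -97 to -78 and that of *Trp53* from -75 to -56. The match in *Aen* lies after the start, from base 10 to 29. *Cdkn1a*, *Bbc3* and *Aen* had 2, 3 and 2 windows, and the start kept need not be the main one. Of 25 other p53 target genes, named below, promoter sequences of 19 were searched, and 5 of these had a match with at most 3 mismatches. A match is a resemblance in letters, and binding of p53 was not measured.

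A few facts about the libraries bear on the values that follow. The MYC-SOX9 transgene had 89.6 and 45.6 TPM at D0 and 3387 and 3414 TPM at W1. It was lower at later timepoints, with 1892 and 1469 TPM at W2, 1108 and 859 TPM at W6, and 606 and 903 TPM at W12. What part this decline had in the members' changes was not tested. In D0 replicate 2 the RNA of *Xist*, made from the inactive X chromosome of female cells, was at 4.61 TPM and that of the Y-linked *Ddx3y* at 0.0278 TPM, which goes against the label of a male mouse, so the calls lost without this library are named with each result. The W12 libraries held both *Xist* (5.51 and 3.50 TPM) and *Ddx3y* (11.0 and 12.9 TPM). The 4 endothelial markers *Pecam1*, *Cdh5*, *Kdr* and *Tek* summed to 34.1 and 78.5 TPM at W12 and to at most 1.57 TPM in the other 8 libraries, although CD31, the product of *Pecam1*, was gated out. *Cd34*, whose product was gated out too, was at 0.383 TPM or less from D0 to W2, at 2.66 and 5.04 TPM at W6 and at 16.5 and 32.0 TPM at W12. Of the fibroblast markers, *Dcn* had 51.2 TPM in W6 replicate 2 and 13.2 and 27.2 TPM at W12, where the other markers of the list were at 0.498 TPM or less. The summed level of the list was 52.2 TPM in W6 replicate 2, 13.7 and 28.1 TPM at W12 and 0.544 to 3.97 TPM in the other 7 libraries. The immune list summed to 104 and 127 TPM at W12, nearly all of it *Cd74*, with its defining marker *Ptprc* at 0.0184 and 0.327 TPM. *Krt14*, the keratin of basal cells, was at 19997 TPM or more in every library and passed at no timepoint, while the other 5 of the 6 basal epidermal markers fell at W6 (log2 changes of -0.74 for *Krt5*, -1.15 for *Itga6*, -1.07 for *Itgb4*, -0.94 for *Ly6a* and -1.70 for *Col17a1*). At W2, 1 of the 6 fell (*Ly6a*), and at W12, 3 fell (*Krt5*, *Itgb4*, *Col17a1*) and *Ly6a* rose. The calls of *Itgb4* at W6 and *Ly6a* at W12 were lost without D0 replicate 2, and what part the lower basal markers had in the members' falls at W6 and W12 was not tested. Summed levels over the 10 libraries ran from 31673 to 47874 TPM for the 6 basal epidermal markers, from 1909 to 13555 TPM for 6 markers of differentiated keratinocytes, highest at W6 and W12, from 23.1 to 84.6 TPM for 5 hair follicle stem cell markers and from 1.22 to 12.5 TPM for 5 melanocyte markers. Of the differentiation markers, *Ivl* rose at all 4 timepoints (log2 changes of 2.02, 1.94, 3.08 and 2.82), *Sbsn* at W1, W6 and W12, and *Krtdap* at W6 and W12, while *Lor* fell at W12 (log2 change -2.60) and *Krt1* and *Krt10* passed at no timepoint. All 3 calls of *Sbsn* were lost without D0 replicate 2, and what part these markers had in the members' changes was not tested. Pearson's *r* between the replicates, across genes, lay between 0.958 and 0.988. TPM keep no record of the number of reads, so the depth behind a value is unknown.

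After SOX9 induction, lower RNA levels were more frequent than higher ones among the members that changed. Changes are given as differences of log2(TPM + 1), on which the change of a gene with few TPM comes out too small, with the standard error (SE) and *P* from limma after Benjamini-Hochberg adjustment over all 13110 genes tested, and a gene is said to have changed at an adjusted *P* under 0.05. Of the 10 members, 8 changed against D0 at 1 or more timepoints, where 57.4% of all genes tested did, and *Trp53inp1* fell at all 4. At W1, 4 members fell and 0 rose, where 4.10% of all genes tested fell and 5.79% rose. At W2, 4 fell and 0 rose, against 6.64% and 9.06% of all genes. At W6, 5 fell and 0 rose, against 14.1% and 18.3%. At W12, 4 fell and 1 rose, against 25.1% and 17.9%. At an unadjusted *P* under 0.05, 1, 0, 0 and 2 members were higher at these timepoints in turn, beside 16.1%, 18.1%, 25.3% and 22.0% of all genes. The median change of the members was -0.16, -0.48, -0.56 and -0.37 from W1 to W12, where that of all genes tested was 0.09, 0.06, 0.08 and -0.08. The libraries of the later timepoint and of D0 did not overlap for 8, 9, 8 and 7 members at W1, W2, W6 and W12, and for 55.2%, 61.8%, 62.5% and 74.7% of all genes tested. Over the time course as a whole (limma's moderated F test), 8 of the 10 members changed, where 57.5% of all genes did, so a count of 8 is not far above its background in either reading. In the F test *Aen* changed (adjusted *P* = 0.0131) and *Bax* did not (0.184), while against D0 *Bax* was called and *Aen* was not. In bulk RNA of sorted cells, fewer cells that express a gene and less RNA per cell cannot be told apart.

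**Figure D1:**
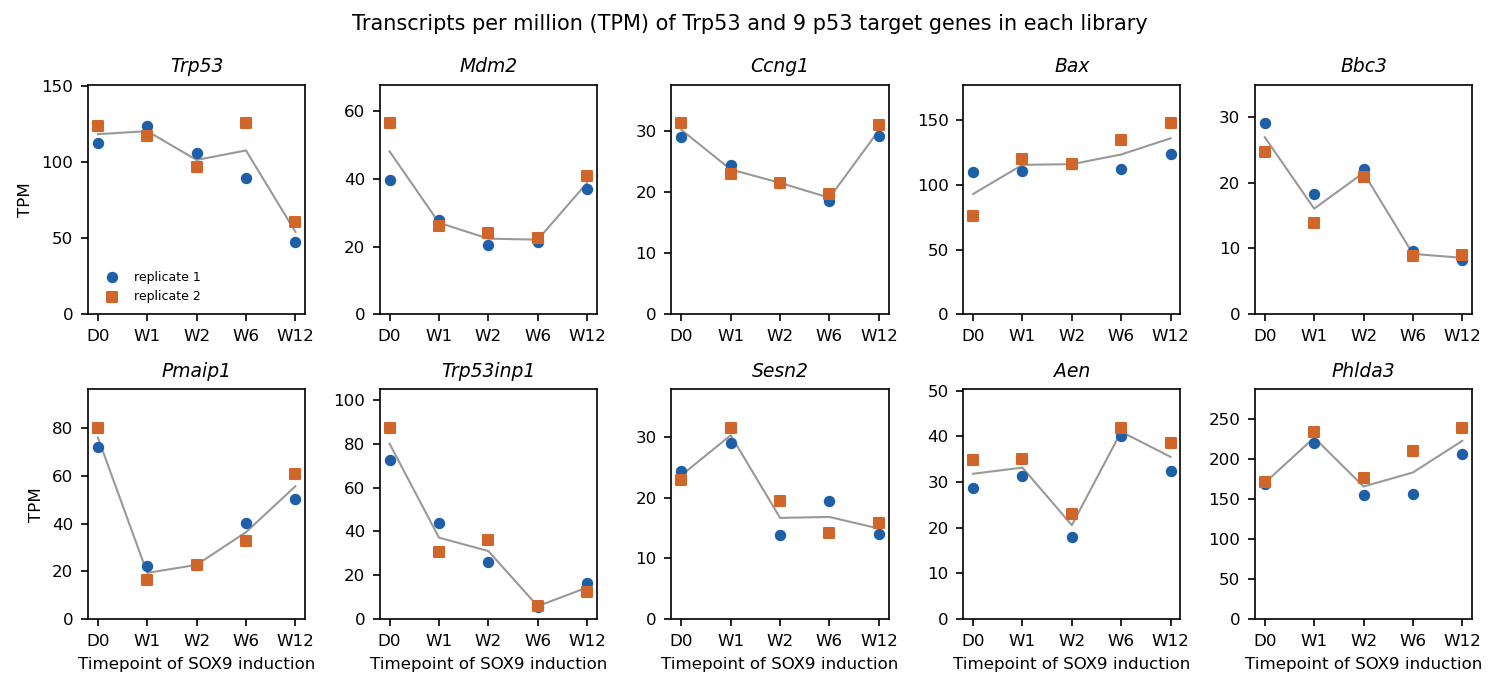
TPM of the 10 members (y axis, from 0, a separate scale per gene) at D0, W1, W2, W6 and W12 (x axis), with one point per library and a grey line through the means of the 2 replicates. *Trp53inp1* falls from 72.7 and 87.4 TPM at D0 to 5.64 and 6.17 TPM at W6, *Pmaip1* is lowest at W1, and *Trp53* is lowest at W12.

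*Trp53* RNA stayed near its starting level through W6 and was lower in the W12 cells. It had 113 and 124 TPM at D0, 124 and 117 TPM at W1, 106 and 97.1 TPM at W2, 89.6 and 126 TPM at W6, and 47.7 and 60.8 TPM at W12. Both W12 libraries lie below all 8 others, while the libraries of D0, W1 and W6 overlap. Against D0, *Trp53* fell at W12 (log2 change -1.12, SE 0.19, adjusted *P* = 0.00208), a ratio of means of 0.458, and this call held without any single library. Its change was 0.02 at W1, -0.22 at W2 and -0.15 at W6, with adjusted *P* of 0.959, 0.477 and 0.562. From W6 to W12, the same drop seen from W6, it fell as well (log2 change -0.97, SE 0.19, adjusted *P* = 0.0103), a call that was lost without W12 replicate 1 (adjusted *P* = 0.0860). W12 is also the timepoint of grafting and of higher endothelial markers and *Cd34*. The fibroblast list summed to 13.7 and 28.1 TPM at W12 and to 52.2 TPM in W6 replicate 2, nearly all of it *Dcn*. What part any of these had in this fall was not tested. A processed copy, *Trp53-ps*, had at most 0.806 TPM. Genes with the most similar course were, by Pearson's *r* on the log2 scale over the 10 libraries, *Taf3* (0.983), *Ubap2l* (0.975) and *Zscan29* (0.974). For all 3 the W12 libraries were the lowest, as in *Ubap2l* with 48.2 and 53.7 TPM at W12 against 64.5 to 84.7 TPM before. The 3 were picked for their likeness to *Trp53*, so this is no separate observation.

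*Mdm2* and *Ccng1* are feedback targets. *Mdm2* encodes the ubiquitin ligase that destroys p53, and *Ccng1* encodes cyclin G1, which helps to activate MDM2. Both were highest at D0, lower from W1 to W6 and high again at W12. *Mdm2* had 39.7 and 56.6 TPM at D0, 27.9 and 26.2 TPM at W1, 20.6 and 24.1 TPM at W2, 21.5 and 22.6 TPM at W6, and 36.9 and 40.8 TPM at W12. The libraries from W1 to W6 all lie below both D0 libraries, and those of W12 overlap with D0. *Mdm2* fell against D0, with a log2 change of -0.79 at W1 (SE 0.19, adjusted *P* = 0.0310), -1.06 at W2 (SE 0.19, adjusted *P* = 0.00675) and -1.07 at W6 (SE 0.19, adjusted *P* = 0.00367), and its change at W12 was -0.28 (adjusted *P* = 0.246). The call at W1 was lost when D0 replicate 2 or either library of W1, W2 or W12 was left out, one at a time (adjusted *P* from 0.0571 to 0.194), and that at W2 without W2 replicate 1 (0.0668). Without D0 replicate 1, the lower of the D0 libraries, *Mdm2* was called lower at W12 too (0.0311). Between W6 and W12 *Mdm2* rose by 0.79 (SE 0.19, adjusted *P* = 0.0206), which was lost without W6 replicate 1 or either W12 library (0.0712 to 0.105).

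*Ccng1*, the member whose promoter holds the element with 1 mismatch, followed the same order of timepoints with a narrower range. It had 29.1 and 31.4 TPM at D0, 24.5 and 23.0 TPM at W1, 21.5 and 21.6 TPM at W2, 18.5 and 19.7 TPM at W6, and 29.2 and 31.1 TPM at W12. No library from W1 to W6 reached a D0 library, and W12 lies within the D0 range. It fell at W6 (log2 change -0.64, SE 0.14, adjusted *P* = 0.00902), with or without any single library. The fall at W2 (log2 change -0.47, SE 0.14, adjusted *P* = 0.0494) was lost when either library of D0, W1, W2 or W12 was left out (0.0506 to 0.242), and the change of -0.34 at W1 did not pass (0.164). At W12 the ratio to D0 was 0.997. From W6 to W12 *Ccng1* rose by 0.63 (SE 0.14, adjusted *P* = 0.0147), which was lost without either W12 library (0.0720 and 0.0770). *Mdm4*, which encodes the relative of MDM2 that masks the activation domain of p53, had 19.3 and 19.4 TPM at D0, between 13.1 and 19.0 TPM from W1 to W6, and 14.8 and 14.4 TPM at W12, and did not pass the test at any timepoint.

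The genes of the death pathway followed different courses. *Pmaip1* and *Bbc3* encode NOXA and PUMA, small proteins that neutralize survival factors of the BCL2 family, *Bax* encodes a protein that opens the outer mitochondrial membrane, and *Aen* encodes a nuclease that p53 induces in apoptosis. *Pmaip1* had 72.0 and 80.3 TPM at D0, 22.3 and 16.4 TPM at W1, 22.8 and 22.7 TPM at W2, 40.2 and 32.7 TPM at W6, and 50.4 and 61.0 TPM at W12. Its mean was lowest at W1 and higher at each later timepoint, while both W12 libraries still lie below both D0 libraries. It fell against D0, with a log2 change of -1.94 at W1 (SE 0.19, adjusted *P* = 0.000709), a 3.93-fold difference, -1.70 at W2 (SE 0.19, adjusted *P* = 0.000863) and -1.05 at W6 (SE 0.19, adjusted *P* = 0.00437), and these 3 calls held without any single library. At W12 the change of -0.45 did not pass (adjusted *P* = 0.0845). The rise of 0.65 from W2 to W6 (SE 0.19, adjusted *P* = 0.0488) was lost when any library of W1, W2, W6 or W12 was left out (0.0561 to 0.207).

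*Bbc3* went the other way in time, with its lowest levels late. It had 29.1 and 24.7 TPM at D0, 18.3 and 13.8 TPM at W1, 22.1 and 20.9 TPM at W2, 9.54 and 8.82 TPM at W6, and 8.17 and 8.97 TPM at W12. All 4 libraries of W6 and W12 lie below the other 6. *Bbc3* fell against D0, with a log2 change of -1.45 at W6 (SE 0.18, adjusted *P* = 0.000766) and -1.54 at W12 (SE 0.18, adjusted *P* = 0.000353), ratios of means of 0.341 and 0.318, and both calls held without any single library. The fall at W1 (log2 change -0.72, SE 0.18, adjusted *P* = 0.0401) was lost without either library of D0, W1, W2 or W12 (0.0556 to 0.284), and the change at W2 was -0.31 (adjusted *P* = 0.280). Between W2 and W6 it fell (log2 change -1.14, SE 0.18, adjusted *P* = 0.00711), which was lost without W2 replicate 1 or W2 replicate 2 (0.0761 and 0.0524).

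*Bax* was the only member called higher than D0 at any timepoint. It had 110 and 75.9 TPM at D0, 111 and 120 TPM at W1, 116 and 116 TPM at W2, 112 and 135 TPM at W6, and 124 and 148 TPM at W12. All 8 later libraries lie above both D0 libraries, but D0 replicate 1 is close to the lowest of them. The rise of 0.56 at W12 (SE 0.19, adjusted *P* = 0.0444) was lost without D0 replicate 2 or either library of W1, W2 or W12 (0.0680 to 0.230), and without D0 replicate 1 *Bax* was called higher at W2 (0.0434) and W6 (0.0159) as well. *Bax* shares exonic sequence on the same strand with *Gm45808*, which had at most 0.268 TPM. *Aen* had 28.7 and 34.9 TPM at D0, 31.3 and 35 TPM at W1, 18.0 and 23.1 TPM at W2, 40.1 and 41.9 TPM at W6, and 32.5 and 38.5 TPM at W12. Both W2 libraries were the lowest and both W6 libraries the highest of the 10. It rose between W2 and W6 by 0.97 (SE 0.18, adjusted *P* = 0.0121), which was lost without W2 replicate 1 (0.113), while no timepoint passed against D0. Its change at W2 was close to the threshold (log2 change -0.61, adjusted *P* = 0.0503) and was called lower in 6 of 19 alternatives, which were pseudocount 0.1, a mean of 5 TPM, median-ratio scaling, quantile normalization, the replicate block (0.0366) and the fit without D0 replicate 1 (0.0381), with adjusted *P* up to 0.301 in the others.

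*Trp53inp1* showed the deepest fall of the members. Its product is a stress-induced protein that promotes p53 activity and autophagy. It had 72.7 and 87.4 TPM at D0, 43.9 and 30.5 TPM at W1, 26.1 and 36.0 TPM at W2, 5.64 and 6.17 TPM at W6, and 16.6 and 12.2 TPM at W12. The D0, W6 and W12 libraries each lie apart from those of every other timepoint, and W1 and W2 overlap. It fell at W6 (log2 change -3.55, SE 0.24, adjusted *P* = 6.90e-05), a 13.6-fold difference in mean TPM, and at W12 (log2 change -2.41, SE 0.24, adjusted *P* = 0.000153), with both calls kept without any single library. The earlier log2 changes were -1.10 at W1 (SE 0.24, adjusted *P* = 0.0228), a call lost without D0 replicate 2 or W1 replicate 2 (0.0955 to 0.189), and -1.35 at W2 (SE 0.24, adjusted *P* = 0.00732), lost without W2 replicate 1 (0.0671). In the step from W2 to W6 alone it fell too (log2 change -2.20, SE 0.24, adjusted *P* = 0.00192). From W6 to W12 *Trp53inp1* rose by 1.14 (SE 0.24, adjusted *P* = 0.0137), which was lost without W6 replicate 1 or W12 replicate 1 (0.0587 to 0.112).

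*Sesn2* encodes Sestrin 2, which restrains the growth kinase complex mTORC1, and *Phlda3* encodes a protein that blocks recruitment of the survival kinase AKT to membranes. *Sesn2* had 24.4 and 22.9 TPM at D0, 29.0 and 31.5 TPM at W1, 13.8 and 19.5 TPM at W2, 19.4 and 14.2 TPM at W6, and 14.0 and 15.8 TPM at W12. Its W1 libraries are above all others, and from W2 on every library is below D0. The fall at W12 (log2 change -0.64, SE 0.21, adjusted *P* = 0.0362) was lost without either library of D0, W1 or W12 (0.0570 to 0.165). *Phlda3*, on the TPM scale the highest of the members at D0, had 169 and 171 TPM at D0, 220 and 233 TPM at W1, 155 and 176 TPM at W2, 156 and 210 TPM at W6, and 206 and 239 TPM at W12. Its libraries at W1 and W12 lie above D0 and those at W2 and W6 on both sides of it, and no comparison passed (W12 0.38, adjusted *P* = 0.0934, and 0.0440 without W6 replicate 1, with W6 replicate 2 giving the same call).

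**Figure D2:**
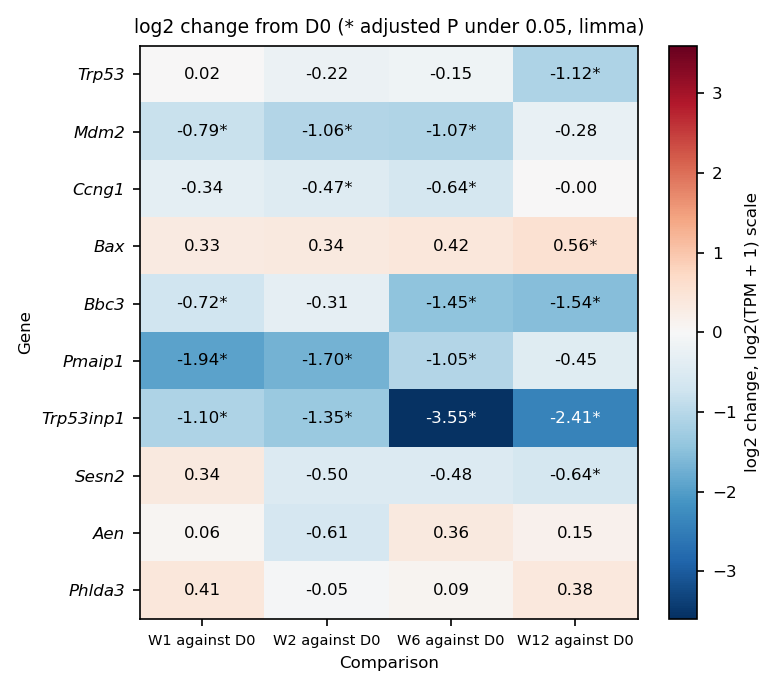
Difference of log2(TPM + 1) from D0 for each member (rows) at W1, W2, W6 and W12 (columns), blue where lower and red where higher, with an asterisk where the adjusted *P* from limma was under 0.05. The 18 marked cells include 17 falls and the rise of *Bax* at W12, and *Aen* and *Phlda3* have none.

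Of the steps between successive timepoints, that from D0 to W1 had 4 members called, as did each of the steps into and out of W6, while the step between W1 and W2 had 0. From W1 to W2, 0 members passed limma's adjusted test and 3 had an unadjusted *P* under 0.05 (*Sesn2* -0.84, *Aen* -0.67 and *Phlda3* -0.45). Of all genes, 14.5% had an unadjusted *P* under 0.05 in this step, while 0.0458% of all genes rose and 0.0686% fell after adjustment. From W2 to W6, 2 members rose (*Pmaip1*, *Aen*) and 2 fell (*Bbc3*, *Trp53inp1*), against 7.99% and 8.31% of all genes. From W6 to W12, 3 rose (*Mdm2*, *Ccng1*, *Trp53inp1*) and 1 fell (*Trp53*), against 6.66% and 13.5%. TPM share a fixed total, and scaling by median ratios instead moved the median change of all genes from -0.16 to -0.02 between W6 and W12 and from 0.08 to -0.05 between D0 and W6. Relative to the median of all genes, the changes from W6 to W12 were 0.95 for *Mdm2*, 0.79 for *Ccng1*, 1.30 for *Trp53inp1* and -0.81 for *Trp53*. Relative to that median at W6 against D0, they were -1.15 for *Mdm2*, -0.72 for *Ccng1*, -1.53 for *Bbc3*, -1.13 for *Pmaip1* and -3.63 for *Trp53inp1*. Without W12 replicate 1 the count for W6 to W12 was 0 and without W6 replicate 1 or W12 replicate 2 it was 2, and without W2 replicate 1 and W2 replicate 2 the count for W2 to W6 was 1 and 2.

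The counts against D0 rested in part on single libraries. At W1 the 4 calls became 1 (*Pmaip1*) without D0 replicate 2 or W1 replicate 2, and 2 (*Pmaip1*, *Trp53inp1*) without W1 replicate 1 or either library of W2 or W12. At W2 they became 1 (*Pmaip1*) without W2 replicate 1. At W12 the 5 calls became 3 (*Trp53*, *Bbc3*, *Trp53inp1*) without D0 replicate 2 or either library of W1 or W12. At W6 the 5 calls were kept in each of these fits.

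The wider set of 25 p53 target genes that are no members included genes that changed in both directions. They were *Cdkn1a*, *Gadd45a*, *Btg2*, *Sesn1*, *Zmat3*, *Tigar*, *Plk2*, *Plk3*, *Fas*, *Tnfrsf10b*, *Perp*, *Apaf1*, *Pidd1*, *Ei24*, *Dram1*, *Polk*, *Xpc*, *Ddb2*, *Rrm2b*, *Ercc5*, *Eda2r*, *Gdf15*, *Ak1*, *Triap1* and *Fdxr*. Of these, 24 were tested, leaving out *Gdf15*, which was at 0.671 TPM or less in every library. At W1, 5 fell and 0 rose, at W2, 5 fell and 1 rose, at W6, 6 fell and 3 rose, and at W12, 6 fell and 1 rose. These shares can be read against the percentages of all genes given for the members. Their median change was -0.04, -0.02, -0.05 and -0.06 in the same order, beside 0.09, 0.06, 0.08 and -0.08 for all genes. *Cdkn1a* had 971 and 1540 TPM at D0, 559 and 604 TPM at W1, 330 and 361 TPM at W2, 528 and 300 TPM at W6, and 419 and 459 TPM at W12. All 8 later libraries lie below D0. It fell, with a log2 change of -1.82 at W2 (SE 0.28, adjusted *P* = 0.00385), -1.61 at W6 (SE 0.28, adjusted *P* = 0.00375), -1.48 at W12 (SE 0.28, adjusted *P* = 0.00371) and -1.07 at W1 (SE 0.28, adjusted *P* = 0.0471), the last lost without D0 replicate 2 or either library of W1, W2 or W12 (0.0807 to 0.193).

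The largest falls of this wider list at W12 were those of *Btg2*, an antiproliferative gene (log2 change -2.77, SE 0.58, adjusted *P* = 0.00545), and of *Xpc*, which recognizes damage for nucleotide excision repair (log2 change -1.49, SE 0.21, adjusted *P* = 0.000955). *Btg2* had 1105 and 2806 TPM at D0 and 59.7 to 359 TPM later, and *Xpc* had 19.9 and 29.2 TPM at D0 and 7.13 and 8.91 TPM at W12. The one rise at W12 was that of *Dram1*, an autophagy gene, from 7.45 and 8.63 TPM to 15.4 and 17.7 TPM (0.96, SE 0.26, adjusted *P* = 0.0177), which was lost without D0 replicate 1 or either W12 library (0.0614 to 0.101). Without D0 replicate 2 the list had 2, 3, 6 and 7 calls from W1 to W12, having lost *Cdkn1a*, *Plk2* and *Fas* at W1, *Btg2*, *Plk2* and *Fas* at W2, *Zmat3*, *Dram1* and *Eda2r* at W6, and *Fdxr* at W12, where *Ak1* was gained. The list varied with other libraries too: without W1 replicate 2 it had 2 at W1, and without W2 replicate 2 it had 1 at W2. Without W1 replicate 1 or either library of W2 or W12 it had 3 at W1.

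**Figure D3:**
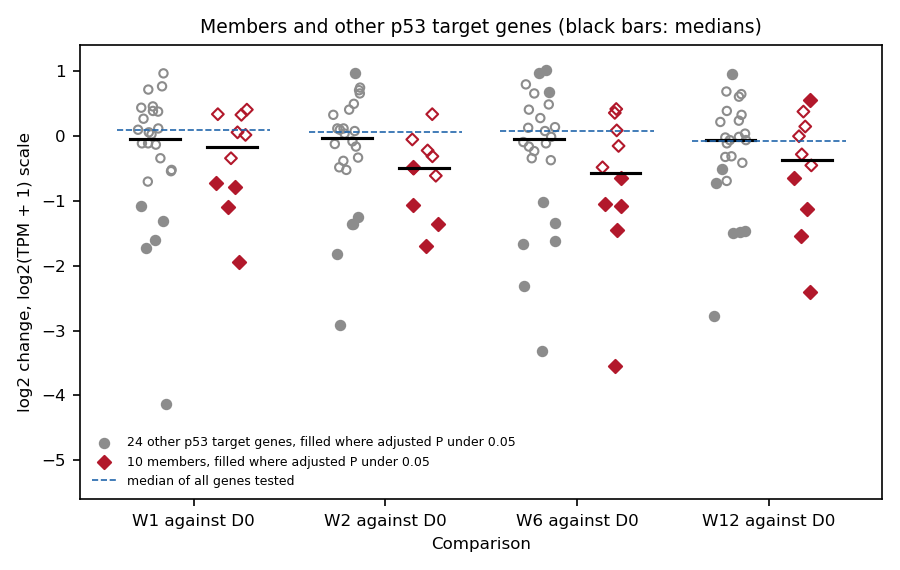
Difference of log2(TPM + 1) from D0 (y axis) of the 10 members (red diamonds) and 24 other p53 target genes (grey circles) at W1, W2, W6 and W12 (x axis), filled where the adjusted *P* was under 0.05, with black bars at the list medians and a dashed line at the median of all genes tested. The members' medians lie between -0.16 and -0.56 and those of the other targets between -0.02 and -0.06.

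Genes that act on p53 had calls at W6 and W12, in shares near or below those of all genes when both directions are counted. Of 13 regulators, 12 were tested, and 0 passed limma's adjusted test at W1 and at W2, where 1 each had an unadjusted *P* under 0.05. At W6, 1 rose and 1 fell, where 18.3% and 14.1% of all genes did, and at W12, 1 rose and 4 fell, where 17.9% and 25.1% did. With D0 replicate 2 left out, 0 passed at W6 (*Chek2* and *Trp53bp1* were lost) and 2 at W12 (*Usp7*, *Kat5* and *Chek1* were lost). The same 3 calls at W12 were lost without either library of W2 or W12, and *Usp7* and *Chek1* without either library of W1. *Chek2* at W6 was also lost without W6 replicate 2 or either library of W1, W2 or W12, and *Chek1* was called at W1 and W2 without D0 replicate 1. *Trp53bp1*, whose product 53BP1 gathers at DNA breaks, fell at W12 (log2 change -1.70, SE 0.24, adjusted *P* = 0.000944), from 19.7 and 24.9 TPM at D0 to 6.60 and 5.65 TPM at W12. *Hipk2*, a kinase that activates p53 for apoptosis, fell too (log2 change -1.05, SE 0.20, adjusted *P* = 0.00363). *Chek1*, a checkpoint kinase of replicating cells, rose (log2 change 1.22, SE 0.41, adjusted *P* = 0.0411), from 6.92 and 1.78 TPM to 9.31 and 10.6 TPM, lost without D0 replicate 2 or either library of W1, W2 or W12 (0.0613 to 0.187). *Cdkn2a*, whose ARF product inhibits MDM2, averaged under 1 TPM and was not tested: it was listed at 0 in the 6 libraries of D0, W1 and W2, at 0.0604 and 0.0348 TPM at W6, and at 1.04 and 1.07 TPM at W12.

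The relatives of p53 were lower at W12. *Trp63*, which encodes the p63 that specifies basal epidermis and binds an element like that of p53, had 291 and 654 TPM at D0, 209 and 211 TPM at W1, 275 and 219 TPM at W2, 160 and 181 TPM at W6, and 126 and 119 TPM at W12. Both D0 libraries are the highest. *Trp63* fell at W12 (log2 change -1.83, SE 0.31, adjusted *P* = 0.00231) and at W6 (log2 change -1.36, SE 0.31, adjusted *P* = 0.0125), the latter lost without W6 replicate 1 (0.0536). *Trp73* fell at W12 (log2 change -1.34, SE 0.34, adjusted *P* = 0.0132), from 8.35 and 18.3 TPM to 3.65 and 5.02 TPM, lost without D0 replicate 2 or W12 replicate 1 (0.0728 and 0.0915). With D0 replicate 1 left out, both genes were called at W1 and W2 as well.

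In the BCL2 family beyond the members, 9 of 12 genes were tested, and 1 rose and 1 fell at W1 (5.79% and 4.10% of all genes), 2 rose and 1 fell at W2 (9.06% and 6.64%), 1 rose and 1 fell at W6 (18.3% and 14.1%), and 2 rose and 3 fell at W12 (17.9% and 25.1%). Without either W6 library the count at W1 was 4 (*Bok* and *Bcl2l11* were gained), and without D0 replicate 1 the count at W6 was 4 (*Bad* and *Bcl2l11* were gained). Both calls at W1, *Bcl2* and *Mcl1*, were lost without D0 replicate 2 or either library of W1, W2 or W12. *Bcl2*, the survival factor that names the family, rose at W1 (adjusted *P* = 0.0252) and at W2 (log2 change 1.37, adjusted *P* = 0.00972) and fell at W12 (log2 change -0.77, adjusted *P* = 0.0412), with 2.90 and 2.74 TPM at D0, 7.04 to 9.27 TPM at W1 and W2, and at most 1.33 TPM at W12. Its call at W2 was lost without either W2 library (0.0753 and 0.0636). *Bcl2l11*, which encodes the death-promoting BIM, rose at W2 (2.04, SE 0.28, adjusted *P* = 0.00236), from 2.96 and 1.52 TPM to 12.7 and 11.2 TPM, in every alternative. *Mcl1*, the survival factor that NOXA binds, had 484 and 875 TPM at D0, 199 and 130 TPM at W6 and 234 and 232 TPM at W12, and fell at all 4 timepoints (log2 change at W12 -1.48, SE 0.28, adjusted *P* = 0.00351). Without those libraries its adjusted *P* at W1 was 0.0774 to 0.236. *Bcl2l1*, which encodes the survival factor BCL-XL, fell at W12 (log2 change -0.82, SE 0.17, adjusted *P* = 0.00475), from 26.8 and 30.6 TPM to 14.3 and 17.4 TPM. Of the death-promoting genes, *Bid* rose by 0.82 (SE 0.29, adjusted *P* = 0.0493) and *Bok* by 0.74 (SE 0.22, adjusted *P* = 0.0257). The call of *Bid* was lost without either library of D0, W1, W2 or W12 (0.0719 to 0.201), and that of *Bok* without D0 replicate 1 or either W12 library (0.0713 to 0.130). The calls of *Bcl2* at W1 and W12 were lost with the same libraries as *Bid*, so that the 5 calls at W12 became 2 without either W12 library and 3 without either library of D0, W1 or W2 (with *Bad* gained where D0 replicate 1 was left out).

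Several members also answer to other stress factors, and 3 further lists were read beside them. *Pmaip1*, *Bbc3* and *Sesn2* are also induced by ATF4, the transcription factor of the integrated stress response. *Atf4* itself had 427 and 579 TPM at D0 and between 123 and 220 TPM in the 8 later libraries, and fell at every later timepoint, with log2 changes of -1.58, -1.95, -1.77 and -1.24 (SE 0.18 each, adjusted *P* of 0.00121, 0.000363, 0.000289 and 0.000898). Of the 8 genes of the ATF4 list, which includes *Atf4*, only *Atf4* passed at W1 and W2, 2 fell and 2 rose at W6, and 1 fell and 2 rose at W12. Of all genes, 14.1% fell and 18.3% rose at W6, and 25.1% fell and 17.9% rose at W12. Without D0 replicate 1, *Asns* and *Psat1* passed at W1 and W2 too, and without D0 replicate 2 the call of *Ddit3* at W6 was lost. The 2 rises at W12 were *Asns*, an asparagine synthetase, by 1.51 (SE 0.19, adjusted *P* = 0.000553) and *Trib3* by 1.38 (SE 0.26, adjusted *P* = 0.00363), from 3.78 and 4.64 TPM to 9.20 and 16.9 TPM. ATF4 is set largely by translation of its RNA, which was not measured.

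Immediate-early genes, which respond within minutes to growth factors, wounding and tissue dissociation, were highest in both D0 libraries for 10 of the 11 genes of the list, the exception being *Ier3*. Of 11, all tested, 10 fell at W1, W6 and W12 each and 9 fell at W2, while 1 rose at W12 (*Ier3*, 1.15, SE 0.27, adjusted *P* = 0.00967, lost without D0 replicate 2 or W12 replicate 2 with 0.0547 and 0.0746). Of all genes, 4.10%, 6.64%, 14.1% and 25.1% fell at W1, W2, W6 and W12. At W1 the 10 calls became 6 without W1 replicate 2 (*Fosb*, *Jun*, *Egr1* and *Dusp1* were lost), and at W2 the 9 became 5 without W2 replicate 2 (*Fos*, *Fosb*, *Egr1* and *Atf3* were lost). Leaving out D0 replicate 2 ended the calls of *Fosb* and *Jun* at W1, *Fosb* and *Atf3* at W2, and *Atf3* at W12. Their summed level was 31013 and 50431 TPM at D0 and 5061 to 11914 TPM in the 8 later libraries. The largest falls at W12 were log2 changes of -3.98 for *Fosb* (SE 0.64, adjusted *P* = 0.00165) and -3.62 for *Egr1* (SE 0.47, adjusted *P* = 0.000612). D0 is the shared control of the changes from W1, W2, W6 or W12 back to the start, and *Mdm2*, *Ccng1*, *Pmaip1*, *Trp53inp1*, *Bbc3*, *Btg2*, *Cdkn1a* and *Mcl1* likewise had their highest means there. What part the state of the D0 libraries had in those falls was not tested. The differences of means from W2 to W6 and from W6 to W12 leave out D0, whose libraries still enter the pooled spread, and in limma's adjusted test 0 and 1 of the 11 immediate-early genes passed in them (0 and 2 at an unadjusted *P* under 0.05).

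Genes of mitosis were lowest at W1 and highest at W6, with 342 and 291 TPM summed over 10 genes at W1, 448 and 480 TPM at W2, 837 and 909 TPM at W6, and 728 and 730 TPM at W12, against 690 and 399 TPM at D0. Of the 10, 4 fell at W1, 1 fell at W2, 4 rose at W6 and 1 rose at W12 (*Birc5*, survivin, 1.03, SE 0.26, adjusted *P* = 0.0123, lost without either W12 library with 0.0655 and 0.0594), and 6 rose from W2 to W6. The shares of all genes were 4.10% and 6.64% for falls at W1 and W2, 18.3% and 17.9% for rises at W6 and W12, and 7.99% for rises from W2 to W6. At W1 the 4 falls became 1 without W1 replicate 2 (*Ccnb1*, *Aurka* and *Bub1* were lost) and 8 without D0 replicate 2. At W6 the 4 rises became 1 without D0 replicate 2 (*Plk1*, *Bub1* and *Cdc25c* were lost) and 8 without D0 replicate 1. The fall of *Aurka* at W2 was lost without either W2 library. The calls gained at W2 went opposite ways, as rises of *Mki67* and *Birc5* without D0 replicate 1 and as falls of *Cdk1* and *Ccnb1* without D0 replicate 2. At W12, rises of *Mki67*, *Cdk1*, *Ccnb1* and *Bub1* were gained without D0 replicate 1. All 6 rises from W2 to W6 were lost without either W2 library, and 2 were left without W6 replicate 2. At W6, 3 members (*Mdm2*, *Ccng1* and *Trp53inp1*) had their lowest mean and 1, *Aen*, its highest.

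**Figure D4:**
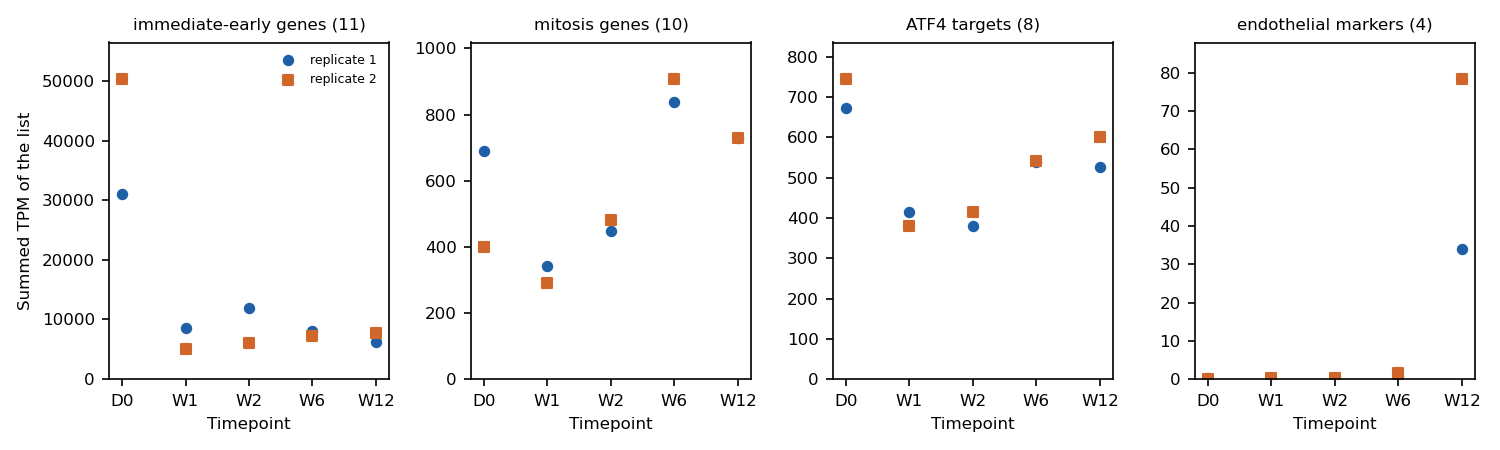
Summed TPM (y axis, from 0) in each library at each timepoint (x axis) of 11 immediate-early genes, 10 mitosis genes, 8 ATF4 target genes and 4 endothelial markers. The immediate-early sum is 31013 and 50431 TPM at D0 and at most 11914 TPM later, the mitosis sum is highest at W6, and the endothelial sum is above 1.57 TPM only at W12.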

How the data were processed

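RNA-seq was performed by the authors on sorted EpdSCs, 2 libraries at each of 5 timepoints, with a low-input SMARTer kit. The authors deposited TPM per gene: reads were trimmed with Skewer, quantified with Salmon 1.4.0 on GENCODE transcripts of GRCm38 with an added transgene entry, and summed with Tximport 1.12.3. TPM carry no depth, so the precision that depth gives is unknown. Labels name separate biological replicates, and *P* values measure the spread between them. A table of the authors' own comparison of embryonic placode cells (fold changes and their tests) was not used.

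Members and gene lists were chosen with earlier results of these data known. Named by rule were the 10 members, *Cdkn1a*, *Mdm4*, *Trp63*, *Atf4*, per list the 2 largest rises and the 2 largest falls called at W12, and the 3 genes closest to *Trp53*; *Gdf15*, *Cdkn2a*, *Bcl2*, *Bcl2l11*, the marker genes and the list genes named for a lost or gained call were added after their values were seen. Genes averaging 1 TPM or more (13110) were fitted on log2(TPM + 1) by limma 3.58.1 (R 4.3.3) with timepoint means over 10 libraries, eBayes with a trend (5 residual degrees of freedom) and Benjamini-Hochberg adjustment. The authors' Wald test needs counts. This step was tested on simulated data. Gene lists were written from general knowledge: other p53 targets, p53 regulators, p53 relatives, BCL2 family, ATF4 targets, immediate-early and mitosis genes, and markers of 7 cell types. Promoters came from RefSeq (GRCm38.p6). Python 3.11.15, numpy 2.4.6, pandas 2.3.3 and matplotlib 3.10.9 were used. Alternatives were pseudocount 0.1, all genes above 0 TPM, a mean of 5 TPM, median-ratio scaling, quantile normalization, no trend, the comparison's libraries alone, a replicate block and leaving out each library. The fits without both W12 libraries and with crossed pairing were chosen after seeing the data.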

Additional observations from a re-analysis of the deposited data

How the results depend on the processing

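The alternatives are summed up here for 48 changes of single members, of which 26 had passed the threshold. The 48 are all changes against D0 and, of the steps between later timepoints, only those called. The share that passed is raised by this choice. None of these 26 changed direction under any alternative and 9 passed in all of them: *Pmaip1* at W1, W2 and W6, *Bbc3* and *Trp53inp1* at W6 and W12, *Trp53* at W12, and *Trp53inp1* from W2 to W6. Fitting only the libraries of a comparison left 1 member at W1, 2 at W2, 3 at W6, 3 at W12 and 0 from W6 to W12, and 1, 3 and 3 of the other p53 targets at W1, W2 and W6; fewer libraries share the spread in that fit. Testing all genes above 0 TPM left 1 member at W1 and 3 at W12, and 2 and 3 other targets at W1 and W2. Quantile normalization left 3 members at W12. Without both W12 libraries 2 members and 3 other targets passed at W1. Leaving out 1 library at a time gave 1 to 4 members at W1, 1 to 5 at W2, 5 to 6 at W6, 3 to 6 at W12, 1 to 4 from W2 to W6, 0 to 4 from W6 to W12, 6 to 9 over the time course, and 2 to 6, 1 to 6, 6 to 8 and 5 to 8 other targets at W1, W2, W6 and W12. Among the 48, the sign turned or left 0 only for changes that had not passed. Under median-ratio scaling these were *Trp53* at W1 (-0.10), *Aen* at W1 (-0.06) and *Phlda3* at W6 (-0.06), and under quantile normalization *Trp53* at W1 (-0.04) and *Phlda3* at W6 (-0.05), while *Ccng1* at W12 went from -0.00 to 0.17. With 1 library left out, the change ranged from -0.04 to 0.09 for *Trp53* at W1, -0.40 to 0.09 for *Trp53* at W6, -0.07 to 0.20 for *Aen* at W1, -0.13 to 0.04 for *Phlda3* at W2, -0.13 to 0.30 for *Phlda3* at W6 and -0.06 to 0.05 for *Ccng1* at W12. Apart from the fewer libraries or more genes tested, the cause was not tested.

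Replicate numbers name different mice, and deviations of same-numbered libraries had correlations between -0.129 and 0.182 across genes, so the numbers were not taken to pair the samples. With the replicate block, 3 members passed at W1, 4 at W2, 5 at W6, 3 at W12, 0 from W1 to W2, 3 from W2 to W6, 4 from W6 to W12 and 8 over the time course, and 3, 5, 8 and 6 other targets at W1, W2, W6 and W12. With crossed numbers, chosen after seeing the data, 3 members passed at W1, 5 at W6 and 4 from W6 to W12.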
